A study of Mus musculus with 2 samples.

Results

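The respiratory chain of the inner mitochondrial membrane carries electrons from NADH (complex I) and succinate (complex II) through complex III to oxygen at complex IV, and complex V, the ATP synthase, uses the resulting proton gradient to make ATP. Most of the subunits are encoded in the nucleus and imported, and a few core subunits are encoded by the mitochondrial DNA. Fibroblasts in culture run both glycolysis and this pathway, and some subunits of complex IV exist as isoforms restricted to muscle, lung or testis. The signals of the nuclear subunit genes are described here in 2 MEF cultures (mouse embryonic fibroblasts, cells grown from embryonic connective tissue).

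The subunit genes were taken by name, from probe sets with a single gene symbol that begins with Nduf (complex I), Sdh (complex II), Uqcr (complex III), Cox4 to Cox8 (complex IV) or Atp5 (complex V) and ends as a subunit name does. The rule gave 80 genes on 163 probe sets, of 18193 genes on the array: 34 of complex I, 4 of complex II, 8 of complex III, 17 of complex IV and 17 of complex V. One culture was homozygous for the disrupted Fut8 gene (Fut8-/-), and the other carried both normal copies (Fut8+/+). Fut8 encodes the fucosyltransferase for the core fucose of N-glycans. Each genotype was represented by 1 array of biotin-labelled RNA. The series' design text speaks of 3 per genotype, and no source used here says whether the arrayed RNA came from 1 dish or the culture from 1 clone. The word culture stands here for the cells behind 1 array, pooled or not. With 1 array per genotype there was no replicate spread and no test, so differences are described by a fixed fold beside the same count over all genes. In RNA from a whole culture, fewer cells of a type and less RNA per cell cannot be told apart.

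Signals are printed as deposited. Ratios are log2 of Fut8-/- over Fut8+/+, centred on the median of all probe sets above a floor (a shift of -0.22 before centring, so that Fut8-/- signals are multiplied by 1.16). Centred signals under the floor of 12.3 were raised to it, and a fold against such a signal is a lower bound. A gene was counted as measured where its brighter array reached a signal of 39.1, the 60th percentile. Of the 80 genes 75 were measured, and 70 of these lay at or above the 90th percentile of all signals (670.2).

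Fut8 itself read 11.7 in Fut8-/- and 190.9 in Fut8+/+ at its brightest probe set. No source used here says whether that probe set lies in the disrupted part. The cultures differed in more than Fut8: the Y-linked gene Eif2s3y had signals of 2845 in Fut8-/- and 7.06 in Fut8+/+, and the X-inactivation transcript Xist had 15.2 in Fut8-/- and 656 in Fut8+/+. Of 15 fibroblast markers 11 were measured, with a median log2 ratio of -0.70. Of these 5 were at least 2-fold lower (against 8.46% of all measured genes) and 1 higher (against 6.08%). The transcription factor gene Prrx1 had 7.26 in Fut8-/- and 221 in Fut8+/+ (at least 17.9-fold lower, and -0.83 on the log2 scale at the only probe set above the floor on both arrays). Fbln2 had 322 in Fut8-/- and 1897 in Fut8+/+, and the matrix genes Fn1 (1254 in Fut8-/- and 4734 in Fut8+/+) and Col1a1 (941 in Fut8-/- and 2832 in Fut8+/+) and the receptor gene Pdgfra (23.6 in Fut8-/- and 61.9 in Fut8+/+) were also lower. The receptor gene Pdgfrb was higher (626 in Fut8-/- and 342 in Fut8+/+). Vim and Col1a2 were bright, with signals of 11110 and 9433 in Fut8-/- and of 11471 and 11280 in Fut8+/+, whereas neither array brought Thy1, Dcn, Lum or Fap up to the measured limit. Summed over all 15 fibroblast markers the signal was 34948 in Fut8-/- and 42598 in Fut8+/+.

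Markers of other cell types were mostly dim. Of 9 epithelial markers 3 were measured. Past 2-fold, 2 were higher (66.7%, against 6.08% of all measured genes) and 1 lower (33.3%, against 8.46%). Krt19, a keratin, had 155 in Fut8-/- and 2.08 in Fut8+/+, at least 14.6-fold higher. The desmosome gene Dsp, on chromosome 13, had 71.1 in Fut8-/- and 5.07 in Fut8+/+ (at least 6.70-fold higher), whereas Epcam, with 15.9 in Fut8-/- and 44.9 in Fut8+/+, was 2.43-fold lower. Cdh1, Krt18 and Cldn4 lay below the floor on both arrays, and the 9 signals summed to 311 in Fut8-/- and 119 in Fut8+/+. Of 8 macrophage and leukocyte markers 3 were measured and 0 passed 2-fold. Ptprc, Adgre1 and Itgam lay below the floor on both arrays, and the 8 signals summed to 188 in Fut8-/- and 257 in Fut8+/+. The part of these differences in the results below was not tested.

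The sequences shown first are the promoter windows of the measured genes that differed by at least 2-fold and have an entry in the RefSeq promoter table of build GRCm38.p6. Each holds 300 bases around the annotated start, most of them upstream. Capitals mark letters of motifs of factors known to act at nuclear genes for mitochondrial proteins or at housekeeping promoters. These motifs were the 10-letter palindrome of NRF1 with 1 middle base left free, CCGGAAG (ETS factors such as GABP), AAGATGGCG (YY1), GGGCGG (SP1) and CCAAT, searched on both strands.
Ndufc1, chr3:51408906-51409205, minus strand: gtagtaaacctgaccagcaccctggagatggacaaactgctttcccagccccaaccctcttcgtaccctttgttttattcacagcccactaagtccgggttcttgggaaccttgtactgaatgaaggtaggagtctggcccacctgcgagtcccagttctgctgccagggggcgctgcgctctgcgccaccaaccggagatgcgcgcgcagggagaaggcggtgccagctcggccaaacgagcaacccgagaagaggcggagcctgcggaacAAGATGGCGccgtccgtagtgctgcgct
Uqcrfs1, chr13:30545267-30545566, minus strand: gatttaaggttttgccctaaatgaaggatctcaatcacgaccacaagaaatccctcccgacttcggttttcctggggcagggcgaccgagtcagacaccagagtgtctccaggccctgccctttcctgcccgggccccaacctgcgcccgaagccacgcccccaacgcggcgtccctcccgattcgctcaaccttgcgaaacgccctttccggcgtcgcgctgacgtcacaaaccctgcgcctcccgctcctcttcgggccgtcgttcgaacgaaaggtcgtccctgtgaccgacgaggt
Cox7c, chr13:86046746-86047045, minus strand: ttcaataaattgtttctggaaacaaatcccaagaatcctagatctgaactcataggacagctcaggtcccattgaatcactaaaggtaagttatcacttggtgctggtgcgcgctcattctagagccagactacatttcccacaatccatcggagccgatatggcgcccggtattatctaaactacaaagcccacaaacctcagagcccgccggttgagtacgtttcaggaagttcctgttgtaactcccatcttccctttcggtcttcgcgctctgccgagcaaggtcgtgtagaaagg
Cox7b2, chr5:71548156-71548455, minus strand: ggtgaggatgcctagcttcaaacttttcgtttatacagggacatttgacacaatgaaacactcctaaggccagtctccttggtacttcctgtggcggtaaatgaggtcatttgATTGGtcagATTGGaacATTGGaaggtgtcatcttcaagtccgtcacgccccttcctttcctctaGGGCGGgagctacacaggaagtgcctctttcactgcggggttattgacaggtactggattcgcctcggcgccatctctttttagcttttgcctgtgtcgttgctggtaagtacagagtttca

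The window of Ndufc1 held a YY1 match just past its start site, that of Cox7b2 held SP1 and CCAAT matches, and those of Uqcrfs1 and Cox7c held none of these letters. Among all subunit genes the NRF1, ETS and YY1 letters were more frequent than over the whole table. In all, 66 of the 80 genes had an entry, with 71 windows. The NRF1 letters with any middle base stood in 16 of the 71 windows (22.5%), against 4.60% of all 32851 windows. The ETS letters stood in 17 (23.9%, against 8.86%) and the YY1 letters in 6 (8.45%, against 1.40%). SP1 letters (40.8% against 35.7%) and CCAAT (40.8% against 37.4%) lay closer to the whole table. The fully palindromic NRF1 letters were found in 4 windows (5.63%, against 0.971%), shown here with 10 bases on each side and the motif in capitals because they stand in genes of 3 complexes.
Uqcrc1, chr9:108936668-108936697, plus strand: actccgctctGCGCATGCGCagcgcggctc
Cox6a1, chr5:115349101-115349130, minus strand: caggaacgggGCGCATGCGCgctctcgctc
Atp5k, chr5:108434430-108434459, minus strand: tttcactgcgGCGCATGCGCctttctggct
Atp5g2, chr15:102671070-102671099, minus strand: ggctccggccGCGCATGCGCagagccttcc
These matches describe the windows alone. The log2 ratios of the 4 genes were 0.83 for Uqcrc1, 0.12 for Cox6a1, -0.00 for Atp5k and 0.10 for Atp5g2.

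Most nuclear subunit genes had similar signals in both cultures, with a small shift towards Fut8-/-. Among the 75 measured, 3 passed 2-fold on the higher side (4.0%, against 6.08% of all 10164 measured genes) and 2 passed it on the lower side (2.67%, against 8.46%). At least 1.5-fold, 11 were higher (14.7%, against 14.4%) and 4 were lower (5.33%, against 16.6%). The count of higher genes thus lay near that of the whole array, and the count of lower genes below it. Of the 3221 genes at or above the 90th percentile, 4.38% were higher and 4.56% lower past 2-fold, and 13.4% and 11.1% past 1.5-fold. Of the 70 members that bright, 2.86% were higher and 0 lower past 2-fold, and 12.9% and 2.86% past 1.5-fold. The median log2 ratio was 0.20 over the members and 0.00 over all measured genes, and 54 members had a ratio above 0 (72.0%, against 50.0% of all measured genes). Among genes as bright as most members, at or above the 90th percentile, the median of all 3221 genes was 0.08 and 56.2% lay above 0, while the 70 members had a median of 0.20 with 51 above 0.

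**Figure D1:**
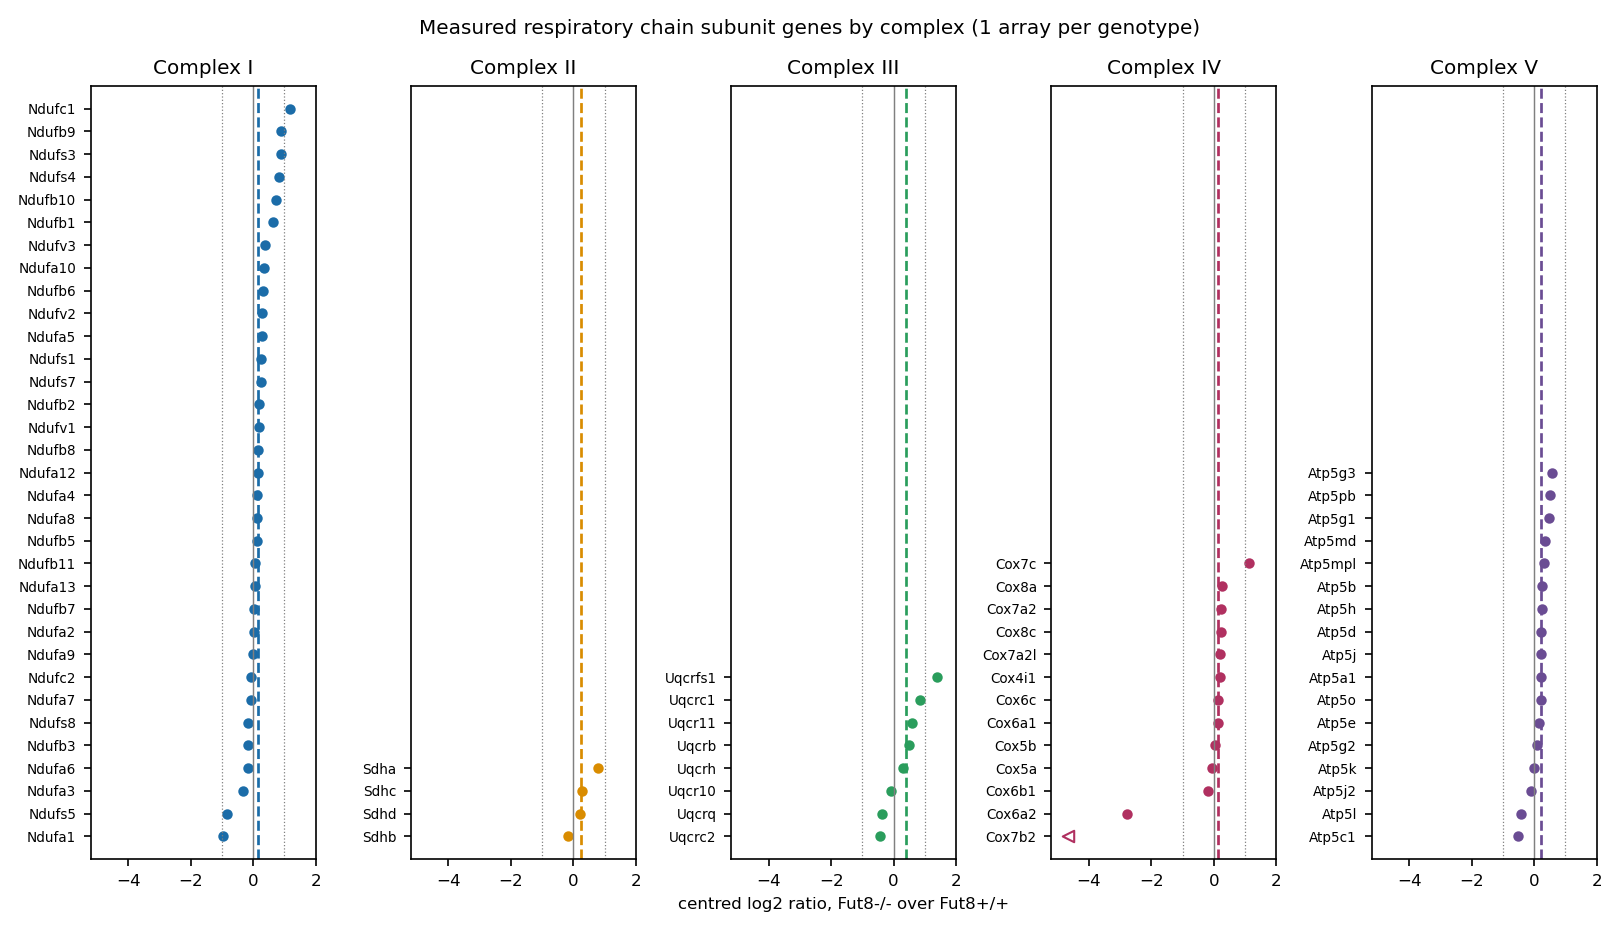
Centred log2 ratio of Fut8-/- over Fut8+/+ (x axis) of each measured subunit gene, 1 panel per complex, genes ordered by ratio. Dashed lines are the complex medians, dotted lines mark 2-fold and the open triangle is a bound. Of the 75 genes 60 lie within 1.5-fold (80%, against 68.9% of all measured genes and 75.5% of those at or above the 90th percentile). Only Cox6a2 and Cox7b2 lie far to the left.

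The spread between probe sets of the same gene gives how far readings of 1 gene differed within this pair of arrays. It does not give the smallest difference between cultures that could be resolved. For 45 subunit genes more than 1 probe set lay above the floor, and their log2 ratios differed with an SD of 0.26 (1.20-fold), against 0.40 over all such genes. This is a technical spread within the pair of arrays and no error between cultures. For 13 of the 45 genes the probe sets differed in sign, most widely for Cox8c (0.22 and -1.13) and Uqcrq (-0.38 at the bright probe set, 1.02 at a dim one). The same count over all genes is not given here. The medians of single complexes were 0.15 for I, 0.24 for II, 0.39 for III, 0.12 for IV and 0.23 for V.

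**Figure D2:**
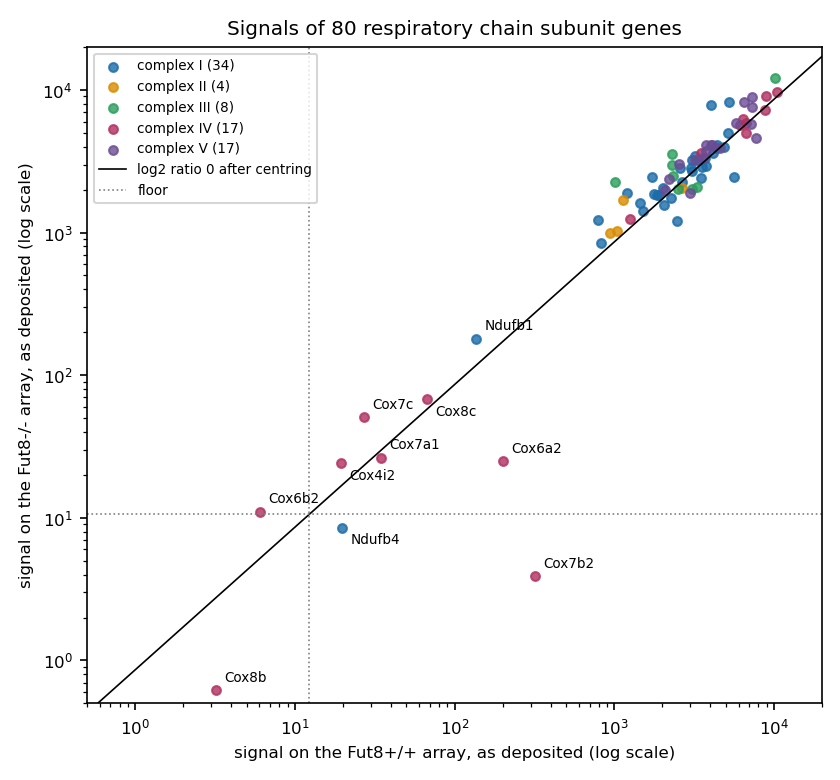
Deposited signal of each of the 80 subunit genes on the Fut8-/- array (y axis) against the Fut8+/+ array (x axis), both on log scales, coloured by complex. The 70 brightest genes lie along the line of equal centred signal, and the isoforms Cox6a2 and Cox7b2 lie far below it.

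Complex I oxidises NADH and passes the electrons to coenzyme Q. Of its 34 genes 33 were measured. The ratio was above 0 for 24 (72.7%, against 50.0% of all measured genes and 56.2% of those at or above the 90th percentile). Only 1 gene passed 2-fold, on the higher side (3.03%, against 6.08%). Ndufc1, an accessory subunit of the membrane arm, had a signal of 7877 in Fut8-/- against 4030 in Fut8+/+, 2.27-fold higher, and its other probe set gave nearly the same log2 ratio (1.20 at that one, 1.19 at the brighter). Ndufb9, also of the membrane arm, had 8257 in Fut8-/- against 5212 in Fut8+/+ (log2 ratio 0.88, and 0.93 at its other bright probe set).

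The core subunit Ndufs3 of the quinone-reducing module had a signal of 1905 in Fut8-/- and 1206 in Fut8+/+ (log2 ratio 0.88). Ndufs4, an accessory subunit whose loss in mice gives a mitochondrial encephalopathy, had 1216 in Fut8-/- and 796 in Fut8+/+ (0.83), and all 3 of its probe sets above the floor were higher. The membrane arm genes Ndufb10 (0.73) and Ndufb1 (0.63) completed the genes at least 1.5-fold higher; Ndufb1 was dimmer, with signals of 180.6 in Fut8-/- and 135.9 in Fut8+/+.

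The 2 genes lower by at least 1.5-fold (6.06%, against 16.6% of all measured genes) were also accessory subunits. The X-linked Ndufa1, needed for assembly of the membrane arm, had a signal of 2467 in Fut8-/- and 5645 in Fut8+/+, a log2 ratio of -0.98 that falls just short of 2-fold. Ndufs5 had 1197 in Fut8-/- and 2479 in Fut8+/+ (-0.83), and a probe set that also reads its pseudogene Ndufs5-ps gave -0.48. The gene nearest to no difference was Ndufa9, with 2274 in Fut8-/- and 2654 in Fut8+/+ (-0.00).

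Grouped by place in the complex, the NADH-oxidising module had a median log2 ratio of 0.17 (9 genes, from -0.17 for Ndufa6 to 0.83 for Ndufs4). The quinone-reducing module had 0.24 (5 genes, from -0.15 for Ndufs8 to 0.88 for Ndufs3) and the membrane arm 0.11 (18 measured of 19). The 6 probe sets of Ndufs8 ran from -0.32 to 0.37. Both ends of complex I, Ndufa1 and Ndufc1, lay in the membrane arm, whose genes spread with an SD of 0.54, against 0.29 for the NADH-oxidising module. The core subunits Ndufv1 (0.17) and Ndufv2 (0.29), which bind NADH and an iron-sulfur cluster, and Ndufs1 (0.24) and Ndufs7 (0.24) lay close together. Ndufa4, named as a complex I subunit and later assigned to complex IV, had a log2 ratio of 0.12.

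Complex II, the succinate dehydrogenase that also serves the citric acid cycle, showed 1 gene of 4 past 1.5-fold. That gene was higher (25%, against 14.4% of all measured genes), and 0 were lower by that much (against 16.6%). The flavoprotein Sdha, which binds succinate, had a signal of 1685 in Fut8-/- and 1137 in Fut8+/+ (log2 ratio 0.79, and 0.96 at its other bright probe set). The iron-sulfur subunit Sdhb had 2047 in Fut8-/- and 2659 in Fut8+/+ (-0.16). The membrane anchors Sdhc (0.29) and Sdhd (0.20) lay between, so the catalytic pair differed from each other by more than the anchors did.

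Complex III passes electrons from coenzyme Q to cytochrome c, and its genes spread with an SD of 0.62, against 0.44 for complex I and 0.29 for complex V. Uqcrfs1, the Rieske iron-sulfur protein, had a signal of 2260 in Fut8-/- against 1015 in Fut8+/+, 2.59-fold higher at its only probe set. Of the paired core proteins, Uqcrc1 had 3535 in Fut8-/- and 2310 in Fut8+/+ (log2 ratio 0.83), while Uqcrc2 had 2073 in Fut8-/- and 3295 in Fut8+/+ (-0.45, and -0.32 at its other probe set). The core proteins therefore lay on opposite sides of 0. Uqcrc2 lies on chromosome 7, whose other genes had a median of -0.32 (below).

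Among the small subunits of complex III, Uqcr11 (0.59), Uqcrb (0.49) and Uqcrh (0.29) lay above 0, and Uqcr10 (-0.10) and Uqcrq (-0.38) below. In all 3 of 8 genes were at least 1.5-fold higher (37.5%, against 14.4% of all measured genes) and 0 lower by that much (against 16.6%). Uqcrfs1, 1 of the 3, lies on chromosome 13, whose other genes had a median of 0.56. Cytochrome c1 (Cyc1), the remaining catalytic subunit encoded in the nucleus, is outside the name rule and had a log2 ratio of -0.04, and somatic cytochrome c (Cycs) had 0.02. The complex median of 0.39 fell to 0.10 without its genes of chromosome 13 (below).

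Complex IV, the cytochrome c oxidase, held the largest differences, and these were in isoforms of restricted tissues. Cox7b2, known in human as a testis isoform, had a signal of 3.89 in Fut8-/- and 317 in Fut8+/+, at least 25.7-fold lower because the Fut8-/- signal lies below the floor of 12.3; it has 1 probe set. Cox6a2, the isoform of heart and skeletal muscle, had 24.9 in Fut8-/- and 201.4 in Fut8+/+, 6.95-fold lower. Its second probe set was also lower, with 3.46 in Fut8-/- and 41.3 in Fut8+/+.

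Cox6a1, the broadly expressed partner of Cox6a2, had nearly equal signals, 9739 in Fut8-/- and 10436 in Fut8+/+ (log2 ratio 0.12). The ubiquitous Cox7b is not analysed here. The other restricted isoforms were dim. Cox8c, a testis isoform in human, was the only one measured (67.6 in Fut8-/- and 67.5 in Fut8+/+). The lung isoform Cox4i2 had 24.2 in Fut8-/- and 19.3 in Fut8+/+, and the muscle isoform Cox7a1 had 26.4 in Fut8-/- and 34.7 in Fut8+/+. Cox6b2 (11.0 in Fut8-/- and 6.04 in Fut8+/+) and the muscle isoform Cox8b (0.621 in Fut8-/- and 3.19 in Fut8+/+) lay near or below the floor.

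**Figure D3:**
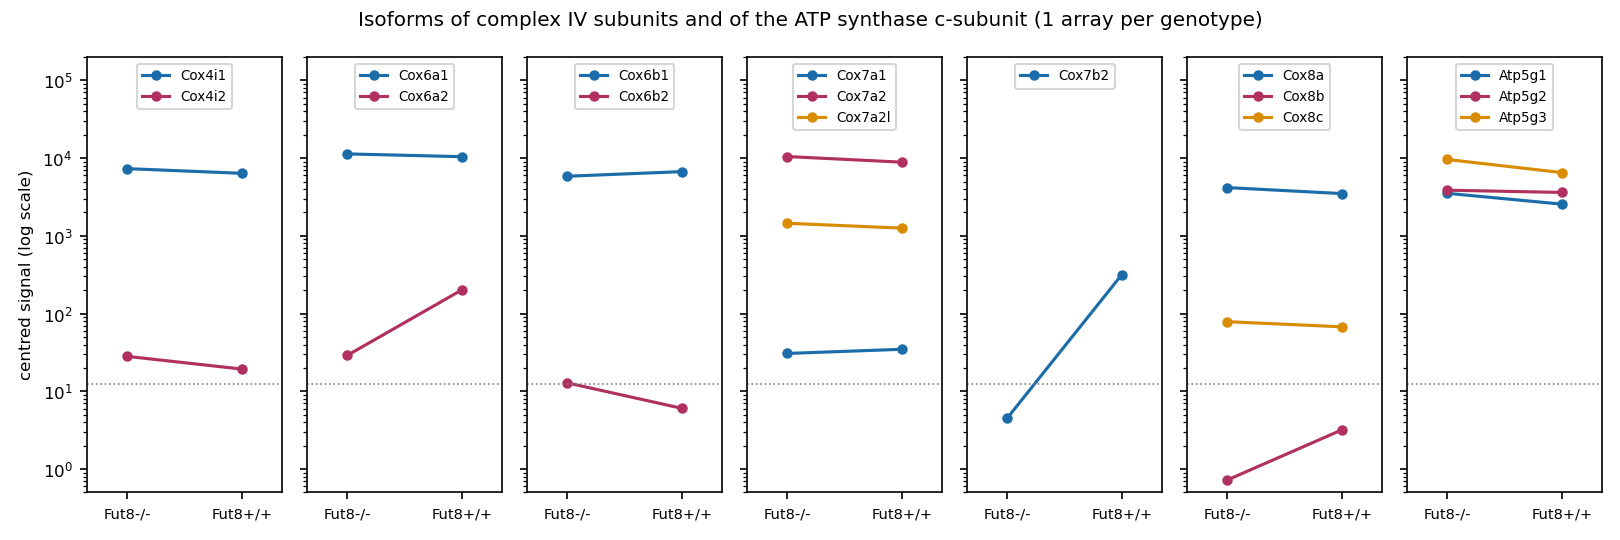
Centred signal (log scale) on the Fut8-/- array (left) and the Fut8+/+ array (right) of each isoform set. Lines join the values of 1 gene, the dotted line is the floor, and signals of different genes are not comparable. Cox6a2 and Cox7b2 are the steep lines, and the broadly expressed isoforms are nearly flat.

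Muscle markers other than these isoforms went in both directions. Of 15 such markers 5 were measured, 4 with a log2 ratio above 0 and 1 below. Tnnt2 (406.5 in Fut8-/- and 208.7 in Fut8+/+) and Ckm (44.6 in Fut8-/- and 22.8 in Fut8+/+) were at least 2-fold higher (40%, against 6.08% of all measured genes). The dim Tnnc1 (0.88) and Acta1 (0.54) were higher by less. For Ckm, which is dim, the other probe set gave a log2 ratio of -0.69, and the ratio of 1.18 became 0.41 with the floor at the 60th percentile. Des (10.2 in Fut8-/- and 55.9 in Fut8+/+) was at least 4.53-fold lower, the only 1 past 2-fold on that side (20%, against 8.46%). Summed over all 15 muscle markers the signal was 609 in Fut8-/- and 439 in Fut8+/+, most of it from Tnnt2 in Fut8-/-. Myog, Myf5, Pax7, Myh3, Myh6 and Tnnt1 lay below the floor on both arrays. The part of muscle-like cells in the Cox6a2 difference was not tested.

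The 10 broadly expressed genes of complex IV had a median log2 ratio of 0.16, and 9 lay within 1.5-fold (90%, against 68.9% of all measured genes). Cox4i1, the regulatory subunit that binds nucleotides, had 6295 in Fut8-/- and 6375 in Fut8+/+ (0.20). Cox5a (-0.06) and Cox5b (0.02) were nearest to 0, and Cox6b1 was lowest (-0.20, at both of its probe sets). Cox6b1 lies on chromosome 7, whose other genes had a median of -0.32 (below). Cox7a2 (0.24), Cox8a (0.26) and Cox7a2l (0.21), the last of which joins complexes III and IV into supercomplexes, lay together. The exception was Cox7c, with 50.8 in Fut8-/- against 27.2 in Fut8+/+, 2.17-fold higher. Its other probe set had 21.5 in Fut8-/- against 9.64 in Fut8+/+. Both were dim, and the annotation gave Cox7c no probe set shared with another symbol. Whether these probe sets read the main transcript was not tested.

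Complex V was the most even of the 5. All 17 genes were measured. Of these 13 lay above 0 (76.5%, against 50.0% of all measured genes and 56.2% of those at or above the 90th percentile). In either direction 0 passed 1.5-fold (range -0.51 to 0.56, SD 0.29). Of all measured genes 68.9% lay within 1.5-fold, and of those at or above the 90th percentile 75.5%. The catalytic subunits Atp5b and Atp5a1 had log2 ratios of 0.26 and 0.22, with signals of 7541 and 3234 in Fut8-/- and of 7334 and 3224 in Fut8+/+. The gamma subunit Atp5c1, the rotor shaft that they enclose, was the lowest of the complex, with 4621 in Fut8-/- and 7677 in Fut8+/+ (-0.51).

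The 4 genes of the peripheral stalk were close to each other, with ratios of 0.21 for Atp5o, 0.23 for Atp5j, 0.25 for Atp5h and 0.50 for Atp5pb. The genes of the c-subunit, which encode the same mature protein of the membrane rotor, had 0.56 (Atp5g3), 0.46 (Atp5g1) and 0.10 (Atp5g2). A dim second probe set of Atp5g1 gave -0.31. Atp5g3 had a signal of 8250 in Fut8-/- and 6511 in Fut8+/+. Of the small membrane subunits Atp5md (0.35) and Atp5mpl (0.33) lay above 0, Atp5k (-0.00) and Atp5j2 (-0.09) near it and Atp5l (-0.44) below.

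The ratios of the subunit genes went in part with those of their chromosomes. Of 75 genes 49 had the same sign as the median of the other measured genes of their chromosome (assembly GRCm38.p6). As 54 of the 75 lay above 0, some matches arise from that share alone, and no expected count was computed. Over the 74 genes not at the floor the 2 values had a Pearson r of 0.48 and a Spearman rho of 0.42. Genes of a chromosome share its median. All 5 members on chromosome 13 (Uqcrfs1, Cox7c, Ndufs4, Sdha and Uqcrb) lay above 0, with a median of 0.83 beside 0.56 for the 372 other genes. All 5 measured members on chromosome 7 (Cox6a2, Uqcrc2, Ndufa3, Cox6b1 and Ndufc2) lay below 0, with a median of -0.32, equal to the -0.32 of 709 other genes. On chromosome 12, where the other 358 genes had a median of -0.38, the 3 members Ndufb1, Atp5mpl and Cox8c all lay above 0.

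**Figure D4:**
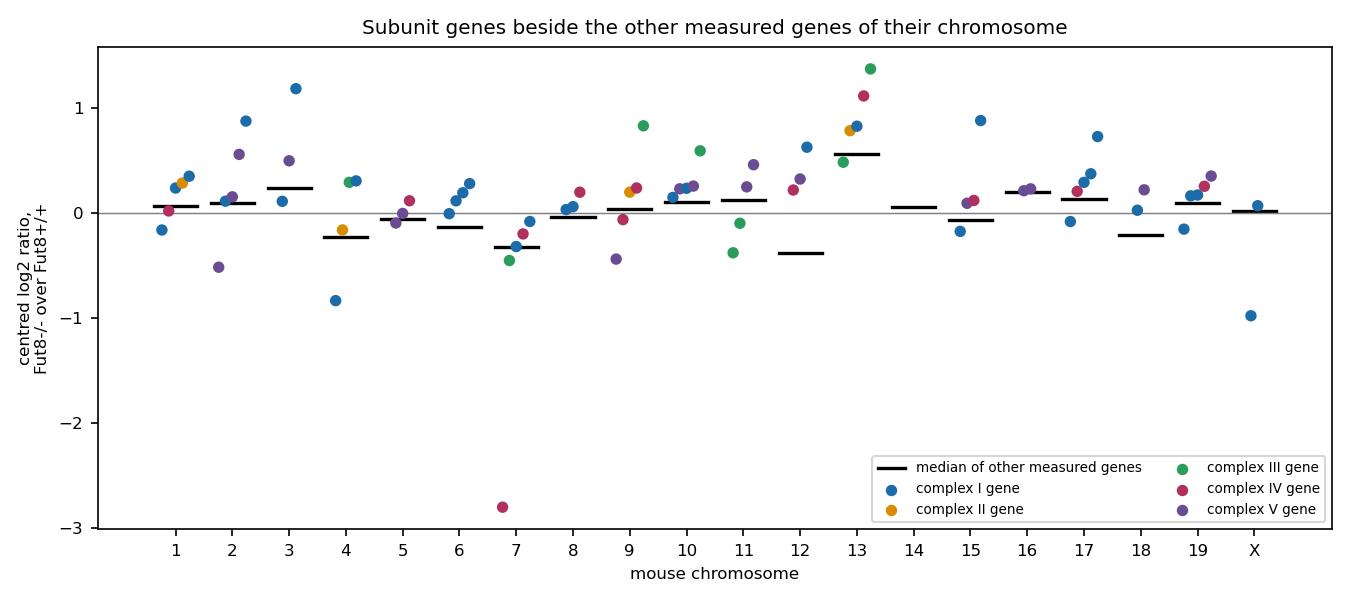
Centred log2 ratio of Fut8-/- over Fut8+/+ (y axis) of the measured subunit genes by mouse chromosome (x axis), coloured by complex; Cox7b2, on chromosome 5, is a bound and not drawn. Black bars are medians of the other measured genes of the chromosome, highest on chromosome 13 at 0.56.

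Subtracting the median of the other genes of a chromosome lowers each ratio on chromosome 13 by 0.56, by construction. With each chromosome centred on its other genes, the log2 ratio was 0.27 for Ndufs4, 0.23 for Sdha, -0.07 for Uqcrb, 0.56 for Cox7c and 0.81 for Uqcrfs1. That of Ndufc1, on chromosome 3, was 0.95 and that of Uqcrc1, on chromosome 9, 0.79. Of the members on chromosome 7, Ndufa3 (0.01), Cox6b1 (0.13) and Ndufc2 (0.24) then lay at or above 0. Uqcrc2 (-0.13) and Cox6a2 (-2.47) stayed below it. In that setting 1 member was at least 2-fold higher, Ndufb1 (1.01), and 3 were at least 2-fold lower, Cox7b2, Cox6a2 and Ndufa1 (-1.0). The share of all measured genes past 2-fold is not given for that setting, so these counts are not set against the array.

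Genes that build the complexes were set beside the subunits. Of 17 measured assembly factors of complex I, 14 lay above 0 (82.4%, against 50.0% of all measured genes), with a median of 0.28, and 2 were at least 2-fold higher (11.8%, against 6.08%) and 0 lower (against 8.46%). These were Ndufaf2, an assembly chaperone on chromosome 13 (1077 in Fut8-/- and 471 in Fut8+/+, 2.66-fold, or a log2 ratio of 1.41 that became 0.85 with each chromosome centred), and Dmac1 of the distal membrane arm (647 in Fut8-/- and 333 in Fut8+/+, 2.27-fold). Assembly factors of complex IV had a median of 0.11 over 22 measured genes. Coa3 (2.33-fold; 2313 in Fut8-/- and 1154 in Fut8+/+) and Cox20 (2.28-fold; 1109 in Fut8-/- and 566 in Fut8+/+), chaperones of the mitochondrially encoded subunits, were the 2 at least 2-fold higher (9.09%, against 6.08%), and 0 were lower (against 8.46%). For complexes II, III and V, 13 assembly factors had a median of 0.17 with 0 past 2-fold, the largest ratios being those of Sdhaf3 (-0.79) and Tmem70 (0.74).

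Lists of other mitochondrial functions were mixed. The 28 measured genes of protein import and the outer membrane had a median of 0.23, with 21 above 0 (75%, against 50.0% of all measured genes) and 0 past 2-fold; the chaperone Hspa9 (-0.66) was farthest from 0. The 18 citric acid cycle and pyruvate dehydrogenase genes had a median of -0.03 with 0 past 2-fold, from Dld (-0.42) to Pdhx (0.78). Of 10 coenzyme Q genes 1 was at least 2-fold higher, the prenyltransferase Coq2 (609 in Fut8-/- and 259 in Fut8+/+, 2.74-fold), a share of 10% against 6.08%, and 0 were lower (median -0.07). Of 19 regulators of mitochondrial gene expression 1 was at least 2-fold lower (5.26%, against 8.46%) and 0 higher (median -0.10). This was Polg2, the accessory subunit of the mitochondrial DNA polymerase, with 173 in Fut8-/- and 739 in Fut8+/+ (3.67-fold). At least 1.5-fold, 4 of the 19 were lower (21.1%, against 16.6% of all measured genes) and 0 higher (against 14.4%). These were Polg2, Polg (-0.70), Esrra (-0.68) and Yy1 (-0.67, and lower at all 4 of its probe sets). The transcription factor genes Nrf1 (0.50) and Tfam (0.17) lay above 0, and Gabpa (-0.12) below. The probe sets differed in sign for Nrf1 (-0.82 to 0.91 over 4) and Tfam (-0.20 and 0.17), and Ppargc1a was below the measured limit on both arrays. One mitochondrially encoded subunit had a probe set with its own symbol: ND5 of complex I had 1155 in Fut8-/- and 776 in Fut8+/+ (0.79).

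**Figure D5:**
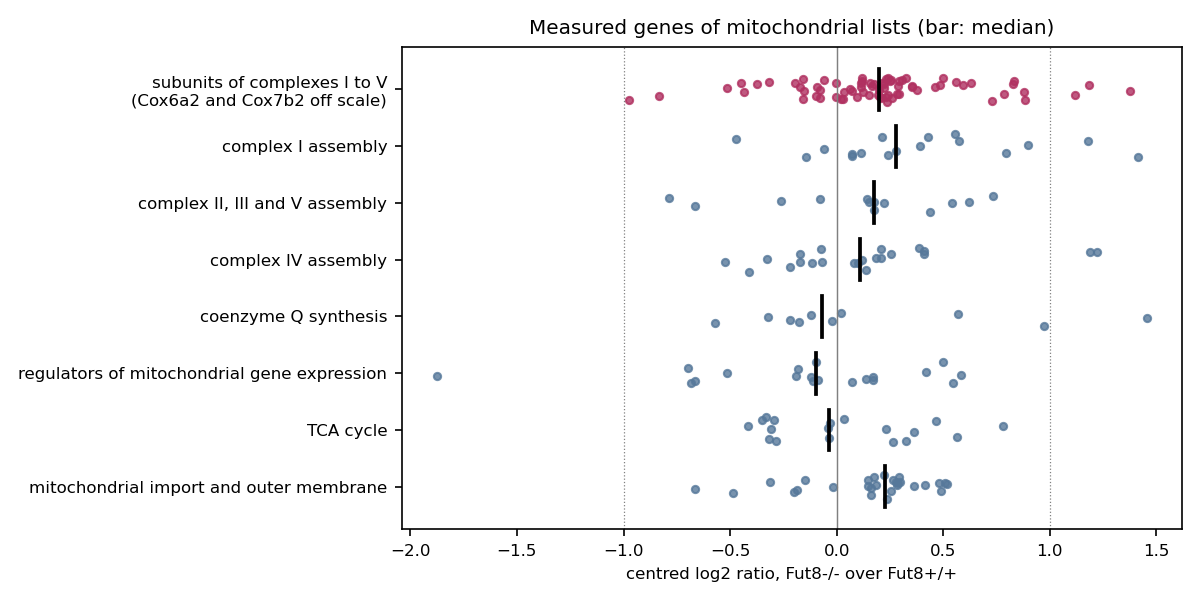
Centred log2 ratio of Fut8-/- over Fut8+/+ (x axis) of measured genes in the subunit set and in lists of other mitochondrial functions, 1 point per gene, with the median as a bar and dotted lines at 2-fold. Subunits, complex I assembly and import have medians between 0.20 and 0.28, and the cycle, coenzyme Q and regulator lists lie near 0.

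The size of the shift depends on scaling. The members' median stayed above that of all measured genes, by 0.12 to 0.21, under each of the 12 other settings run. Not all of these settings could narrow that distance. The floor settings leave bright genes as they are, and leaving out centring moves members and other genes nearly alike. Without centring, the median was -0.02 over the members and -0.23 over all measured genes, 0.21 apart. In that setting 1 member was at least 2-fold higher and 4 were lower (Cox7b2, Cox6a2, Ndufa1 and Ndufs5). No share of all measured genes is given beside these counts. After quantile normalization or loess on signal the distance was 0.12, and the complex IV median lay just below 0 in both.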

How the data were processed

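Each array held RNA of MEFs of 1 genotype, and groups follow the genotype label. No source used here says whether that RNA came from 1 culture or was pooled. The authors' deposited values are linear signal intensities, 1 per probe set and array, and come from the Affymetrix software GCOS, per the submitters' processing notes; no source used here gives its version, algorithm or scaling target. The deposited columns have medians of 16.9 (Fut8-/-) and 20.5 (Fut8+/+), so their common scale and centring stay unknown.

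Signals were put on the log2 scale, centred on the median log2 ratio of probe sets whose signal passed each array's 40th percentile, and raised to a floor at the 40th percentile (12.3). Where 1 array is at the floor, the fold is a lower bound. The platform annotation gave 34945 probe sets 1 symbol, 932 several and 9160 none; 34741 matched the gene table, and 0 member symbols differed. A gene's brightest probe set was used. Of the measured members 11 were read by probe sets marked _s_at and 5 by _x_at, which can match related transcripts or pseudogenes. Named are all members past 1.5-fold, extremes of each complex, isoform sets and up to 4 genes of each other list; further genes named were chosen after their values were seen. Members, lists, complex I and V modules, folds and settings were chosen with earlier results of these data known. The number of arrays limits precision. The steps were tested on simulated data (Python 3.11.15, pandas 2.3.3, statsmodels 0.14.6).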

Additional observations from a re-analysis of the deposited data

How the results depend on the processing

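No paired analysis was possible because each genotype has 1 array. Without centring, the median of all measured genes was -0.23. In that setting the medians were -0.018 over all members, -0.068 for complex I, 0.026 for II, 0.17 for III, -0.097 for IV and 0.014 for V. Those of the lists were 0.060 (complex I assembly), -0.044 (complexes II, III and V assembly), -0.11 (complex IV assembly), -0.23 (other subunits), -0.29 (coenzyme Q), -0.32 (regulators), -0.25 (citric acid cycle) and 0.010 (import). Members higher and lower numbered 1 and 4 past 2-fold, and 7 and 8 past 1.5-fold. After quantile normalization the medians were 0.28 for complex III, -0.012 for IV, -0.15 for other subunits and 0.12 for import. After loess they were 0.27 for III, -0.0073 for IV, 0.12 for V, -0.14 for other subunits and 0.12 for import. With each chromosome centred they were 0.21 for III, 0.13 for V, 0.13 for other subunits and 0.0040 for regulators, with 1 member at least 2-fold higher. With the filter at the 90th percentile, which leaves out dim genes, 0 members passed 2-fold and 2 passed 1.5-fold on the lower side, and the medians of complex IV assembly and coenzyme Q were 0.23 and 0.12. Without chromosomes 7, 12, 13, X and Y, 1 member was higher and 1 lower past 2-fold, and 6 and 2 past 1.5-fold. Without the members of chromosome 13, an alternative chosen after seeing the data, 1 was at least 2-fold and 7 at least 1.5-fold higher, and the complex III median was 0.10. No share of all measured genes is given for the counts under these settings, so they stand beside the main counts alone. Beyond the settings' own construction the cause was not tested. Of 761 values of single genes under these settings 728 moved by less than the probe set spread of 0.40 and 33 by more. None of the 33 turned a difference of at least 1.5-fold. That spread is the one over all genes, against 0.26 for the members. Many values could not pass it, as filters and left-out chromosomes keep a gene's ratio and the floor settings change only dim genes. Leaving out centring shifts bright genes by -0.22. The count of 728 is therefore no measure of robustness. Signals near the floor limit Cox7b2, Cox6a2 and Cox7c, whose log2 ratios were -3.02, -2.36 and 0.59 once the floor was raised to the 60th percentile.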

Other observations

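Some subunits were read only, or most brightly, by probe sets that the annotation pairs with several symbols, which the comparisons leave out. Ndufs6, an accessory subunit of complex I, and its copy Ndufs6b shared a probe set with signals of 1795 in Fut8-/- and 1440 in Fut8+/+ (log2 ratio 0.54). Ndufa11 and Ndufa11b shared one with 2294 in Fut8-/- and 2341 in Fut8+/+ (0.19). Ndufb4, whose own probe set was dim at 8.55 in Fut8-/- and 19.8 in Fut8+/+, shared 2 bright probe sets with Ndufb4b and Ndufb4c. These had 2337 and 1929 in Fut8-/- and 2733 and 2374 in Fut8+/+, with log2 ratios of -0.01 and -0.08. Such copies cannot be told apart on these arrays.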
